A study of Mus musculus with 2 samples.

Results

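Capillary endothelial cells that carry the transporters of the blood-brain barrier were examined in 2 droplet single-cell RNA libraries of mouse leptomeninges, the soft membranes over the brain. The labels name the libraries R1 and R2 and place them in 1 group, with no treated or mutant arm. Per the labels, the membranes were peeled by hand from the cerebral hemispheres of Pdgfra-H2BGFP mice, males and females, aged 3 months, and a recovery of up to 5000 cells was aimed for in each. Pdgfra-H2BGFP is a line with a nuclear green fluorescent reporter of Pdgfra, a gene of fibroblasts and not of endothelium, and every animal behind both libraries carried it. Neither the number of animals, nor the sexes behind each library, nor whether R1 and R2 came from separate animals is given. A difference between R1 and R2 that all classes share is taken out by the fit. The p-values thus measure how far differences between classes vary from library to library, which may in part be technical. Xist, the RNA of the inactive X chromosome, differed between the libraries, as given below.

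A barcode is a droplet's tag and stands for a cell, and a UMI is a tag that counts 1 captured RNA molecule. Kept barcodes had 400 genes or more and no more than 10% of UMIs from mitochondrial genes. They were taken as endothelial with at least 3 UMIs summed over Cldn5, Flt1, Ly6c1, Pecam1 and Cdh5. Capillary barcodes had at least 3 UMIs summed over 4 transporter genes (Slco1a4, Slco1c1, Slc2a1 and Slc7a5), and more than the sum over the venous genes Ackr1, Lrg1 and Vwf and more than the sum over the arterial genes Eln, Bmx and Gja4. This gave 402 capillary barcodes among 740 endothelial and 6026 kept barcodes, 209 in R1 and 193 in R2. In R1 they made up 53.9% of the endothelial barcodes (48.8 to 58.9, the exact binomial 95% interval), and in R2 54.8% (49.5 to 60.1). The same rule turned towards the venous or arterial genes gave 66 venous-like barcodes (38 in R1, 28 in R2) and 91 arterial-like barcodes (46 and 45), and 181 endothelial barcodes fell in none of these. The classes are ranges of a score and not separate types. At the edge of the rule, 15 barcodes of R1 and 12 of R2 had a transporter sum of 2 that exceeded both other sums and were left out, while 10 and 12 had a sum of 3 and were members. A further 70 and 52 endothelial barcodes reached a transporter sum of 3 and were left out because the venous or arterial sum was as high or higher. Capillary barcodes had a median of 1931 UMIs in R1 and 1764 in R2, and together held 575820 and 420825 UMIs.

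Brain capillary endothelium is sealed by tight junctions and moves little by vesicles, so that nutrients, hormones and waste cross it through carriers and pumps in its membranes. Slc2a1 is the glucose carrier GLUT1, Slc7a5 is the large neutral amino acid carrier LAT1, and Slco1a4 and Slco1c1 carry organic anions, the latter also thyroid hormone. WNT signals from neural tissue, read through beta-catenin and its DNA-binding partners of the LEF and TCF family, are known to keep this programme on. Along the vessel tree, arterial, capillary and venous endothelium differ in gene expression by gradual steps, which is called zonation. The vessels of the leptomeninges include the arteries and veins of the brain surface, and capillary barcodes in a peeled membrane can come from the membrane or from adhering cortex, which these data cannot tell apart.

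The libraries shared 93 barcode sequences, and this touches the classes unequally. In 78 of these pairs the profiles correlated above 0.5 (0.538 to 0.891, median 0.694) and the UMI totals were close (ratio of R1 to R2 from 0.801 to 1.28, median 0.955). The other 15 pairs correlated at 0.353 or lower. No pair had identical counts (0 of 93). Shared sequences were 2.64% of the kept barcodes of R1 and 2.57% of R2, but 66 of the 78 close pairs were endothelial in both libraries and 37 were capillary members in both. They gave 40 capillary barcodes of R1 with 17.0% of the class's UMIs and 45 of R2 with 27.6%. In the venous-like class they gave 57.3% and 66.5% of the UMIs, and in the arterial-like class 9.62% and 16.9%. Levels below are in CPM, the UMIs of a gene scaled to a total of 1e6 UMIs per summed class. Shared capillary barcodes carried 41728 CPM in R1 and 42014 CPM in R2 of 20 immediate-early and stress genes, against 4757 and 3085 CPM in the other capillary barcodes. Ptgds, an enzyme made by leptomeningeal fibroblasts, was at 163 and 793 CPM in shared and at 10119 and 22914 CPM in unshared capillary barcodes. Slco1a4 was also lower in the shared barcodes (837 and 870 CPM against 2815 and 2707). How these sequences came to be in both libraries was not tested. All fits below are given with them and without them. With them, like profiles enter both libraries, so R1 and R2 are not independent, and the p-values of those fits do not allow for this.

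**Figure D1:**
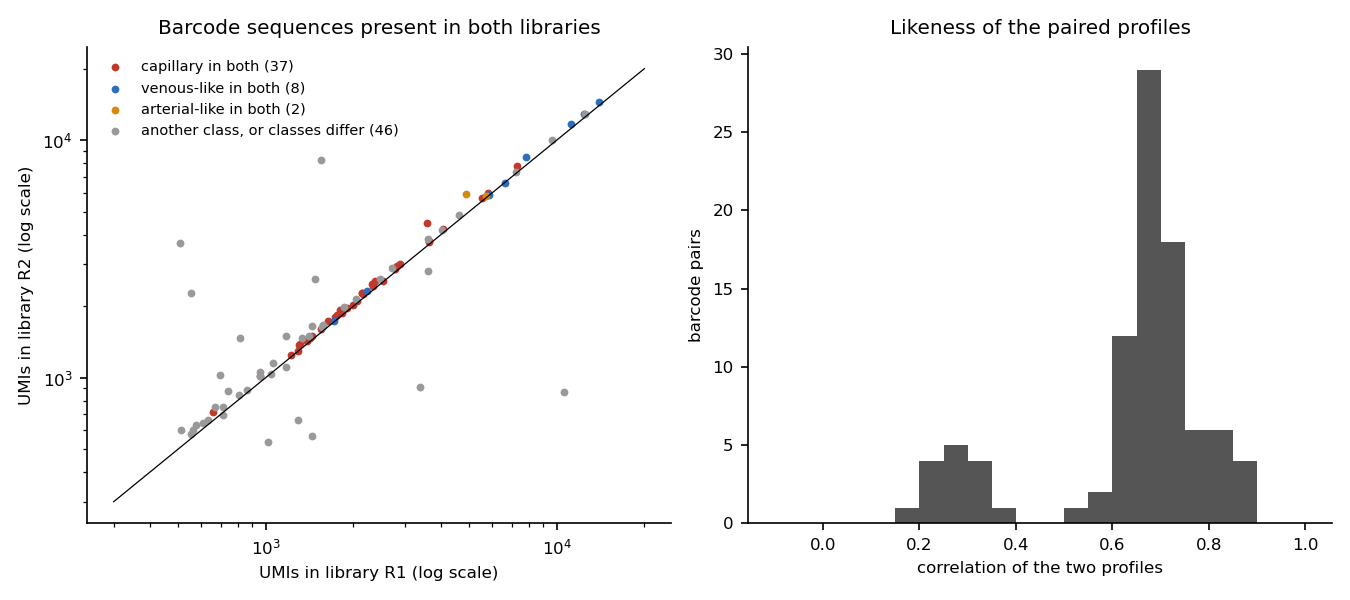
Left, UMIs of each of the 93 shared barcode sequences in R1 (horizontal, log scale) and in R2 (vertical, log scale), coloured by class, with the line of equality. Right, histogram of the correlation of the paired profiles. The 37 pairs that were capillary in both libraries lie close to the line, and 78 pairs form a peak above 0.5.

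Of the solute carrier list and the capillary zone list (26 and 17 genes), 20 and 13 genes were tested, and 19 and 13 without shared barcodes. In both settings 5 passed as higher in capillary than in both the venous-like and the arterial-like class: Mfsd2a, Cxcl12, Spock2, Car4 and Rgcc. Over all genes, 9 of 4330 (0.208%) were higher than in venous-like barcodes without shared ones. The share of all genes that passed every comparison was not counted. Both comparisons use the same capillary sums, and neither list is independent of the rule. The promoters of the 5 genes are shown because the WNT programme acts through LEF and TCF factors. The core motif of these factors can be looked for in them. Each runs from 250 bases before to 50 bases after the RefSeq gene start (build GRCm38.p6), 5′ to 3′ on the gene's strand. Capitals mark a match to the LEF and TCF core CTTTGA or to the core CGGAAG of ETS factors, a family of endothelial regulators, on either strand (TCAAAG and CTTCCG on the reverse).
Mfsd2a, chr4:122961139-122961438, minus strand: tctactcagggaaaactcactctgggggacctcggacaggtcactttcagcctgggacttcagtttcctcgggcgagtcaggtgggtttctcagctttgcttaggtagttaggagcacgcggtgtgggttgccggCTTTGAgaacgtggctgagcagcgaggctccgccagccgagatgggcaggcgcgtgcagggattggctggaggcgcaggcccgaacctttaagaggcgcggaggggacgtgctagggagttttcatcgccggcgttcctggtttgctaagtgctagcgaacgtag
Cxcl12, chr6:117168285-117168584, plus strand: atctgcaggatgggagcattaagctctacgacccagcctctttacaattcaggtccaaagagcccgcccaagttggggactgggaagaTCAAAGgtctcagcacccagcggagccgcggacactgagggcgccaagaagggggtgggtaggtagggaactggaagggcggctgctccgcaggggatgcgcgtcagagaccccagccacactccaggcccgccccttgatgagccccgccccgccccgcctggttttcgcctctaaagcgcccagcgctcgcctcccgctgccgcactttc
Spock2, chr10:60106007-60106306, plus strand: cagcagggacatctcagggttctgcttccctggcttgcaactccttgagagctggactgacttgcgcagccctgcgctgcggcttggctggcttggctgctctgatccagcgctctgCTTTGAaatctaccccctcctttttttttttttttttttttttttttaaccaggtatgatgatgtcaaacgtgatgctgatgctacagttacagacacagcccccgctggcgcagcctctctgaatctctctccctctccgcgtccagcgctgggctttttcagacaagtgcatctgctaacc
Car4, chr11:84957504-84957803, plus strand: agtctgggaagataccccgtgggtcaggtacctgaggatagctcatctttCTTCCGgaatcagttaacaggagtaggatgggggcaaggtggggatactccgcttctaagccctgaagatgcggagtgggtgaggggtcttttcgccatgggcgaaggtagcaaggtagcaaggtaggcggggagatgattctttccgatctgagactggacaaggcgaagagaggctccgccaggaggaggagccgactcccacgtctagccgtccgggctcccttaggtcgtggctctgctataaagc
Rgcc, chr14:79301586-79301885, minus strand: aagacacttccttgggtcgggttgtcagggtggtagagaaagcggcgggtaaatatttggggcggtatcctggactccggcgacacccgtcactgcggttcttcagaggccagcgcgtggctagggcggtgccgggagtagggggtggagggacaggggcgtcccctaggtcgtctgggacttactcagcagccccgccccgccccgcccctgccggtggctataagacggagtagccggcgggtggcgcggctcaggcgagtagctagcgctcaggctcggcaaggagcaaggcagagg
The LEF and TCF core was found in 3 of the 5, Mfsd2a, Cxcl12 (reverse strand) and Spock2, and in 16% of the 32851 mouse promoters of the same length. The ETS core was found in 1 of the 5, Car4 (reverse strand), and in 16.9% of all promoters. A match is a run of letters and not evidence of binding, and 5 promoters chosen by their expression allow no statement on either family.

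The 15 genes of the rule chose the classes and are described without a test. Slco1a4 was at 2478 CPM in R1 and 2200 in R2 in capillary barcodes, against 1309 and 934 in venous-like and 491 and 488 in arterial-like ones. Slco1c1 was at 1132 and 751 CPM, against 288 and 171 in venous-like and 118 and 173 in arterial-like barcodes. Slc2a1 was at 1566 and 2890 CPM, against 1067 and 1476 in venous-like and 718 and 921 in arterial-like barcodes. With the shared barcodes, these 3 carriers stepped down from capillary to venous-like to arterial-like in both libraries, apart from Slco1c1 in R2, where the last 2 were level. Slc7a5 was at 415 and 385 CPM, against 90.8 and 114 in venous-like barcodes, and in arterial-like ones it had no UMI in R1 and 65.0 CPM in R2. Cldn5, the main claudin of the tight junction, was at 6528 and 6772 CPM in capillary and at 6206 and 7523 in arterial-like barcodes, so it did not set these classes apart, and in venous-like barcodes it was at 4548 and 3105. Of the genes used against membership, Vwf, the clotting protein von Willebrand factor, was still at 689 and 1169 CPM in capillary barcodes (2800 and 2543 in venous-like), and Ackr1, a chemokine-binding protein of venules, at 34.7 and 49.9 CPM (787 and 791). Eln, the elastin gene, was at 156 and 261 CPM (3098 and 3479 in arterial-like). All these values include the shared barcodes. Without them Slco1a4 and Slc2a1 kept their order of classes. Slco1c1 in R2 was then at 56.8 CPM in venous-like and 209 in arterial-like barcodes, on 2 and 16 UMIs. Cldn5 was then at 7181 and 8072 CPM in capillary and 7266 and 4543 in venous-like barcodes, so it was lower there in R2 alone.

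**Figure D2:**
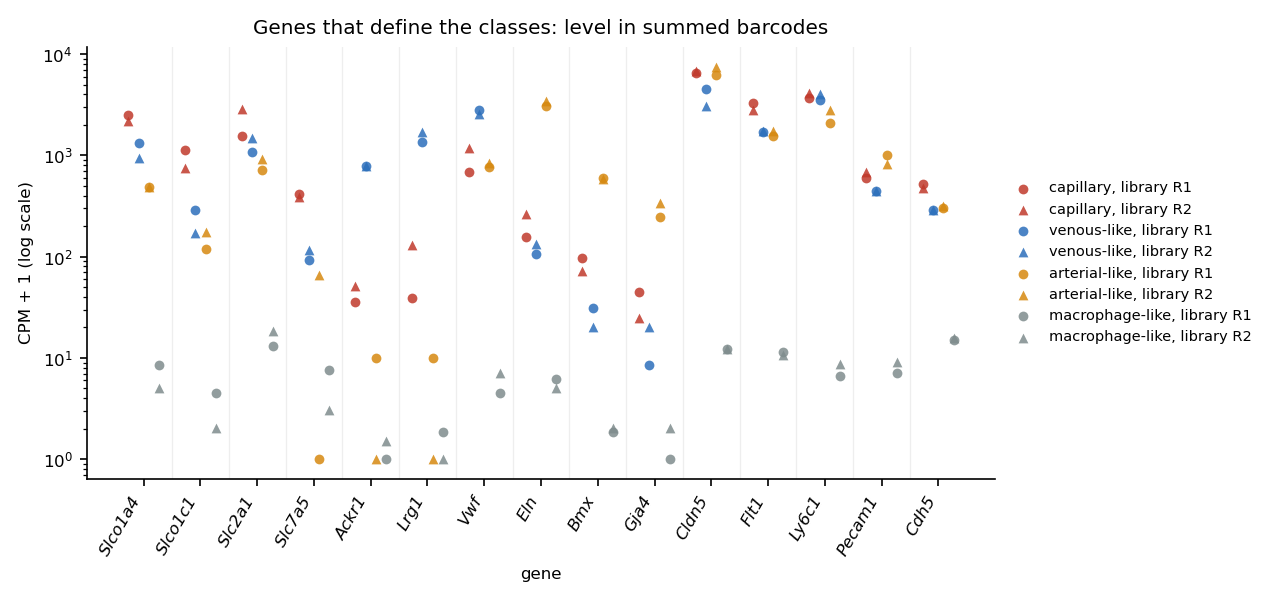
CPM plus 1 (log scale) of the 15 genes of the rule in the barcodes of each class summed per library, circles for R1 and triangles for R2. These genes define the classes, so their separation is fixed by the rule. Macrophage-like barcodes (at least 5 UMIs summed over C1qa, C1qb and C1qc, and an endothelial sum under 3) show a background level. Their low level of the 5 endothelial genes is set by that limit.

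Macrophage-like barcodes, used as background, had at least 5 UMIs summed over C1qa, C1qb and C1qc and an endothelial sum under 3. Barcodes with more endothelial UMIs were left out of this background by that choice. Under 1% of UMIs came from the nuclear RNA Malat1 in 65.9% (R1) and 70.6% (R2) of them, against 5.74% and 7.77% of capillary barcodes. Slco1a4 is a gene of the rule, so its share among members is fixed by the rule and is given as a description only. It had a UMI in 199 of 209 capillary barcodes of R1 (95.2%) and 174 of 193 of R2 (90.2%), and in 14 of 791 (1.77%) and 8 of 783 (1.02%) macrophage-like barcodes, which should lack it and whose median depth was 1687 and 1403 UMIs. Thinned to 1000 UMIs per barcode, which left 184 and 163 capillary barcodes, the shares were 83.7% (95% interval 77.5 to 88.7) and 77.9% (70.8 to 84.0), against 0.821% and 0.376% in macrophage-like barcodes. Markers of the fenestrated endothelium of the choroid plexus summed to 19.1 and 19.0 CPM in capillary barcodes, and those of lymphatic endothelium to 48.6 and 28.5 CPM over 5 genes, with Reln at 0 in both libraries and Prox1, Lyve1 and Mmrn1 at 0 in R2. Both lists were higher in macrophage-like barcodes (133 and 183 CPM, and 278 and 629 CPM). The lists include Cd36 and Lyve1, and whether macrophages make these themselves was not tested. These sums therefore set no background level for either list. All 13 mural markers, of pericytes and smooth muscle, had UMIs in the capillary class, at 2716 and 1965 CPM in all, against 817 and 591 in venous-like, 3562 and 3523 in arterial-like and 314 and 250 in macrophage-like barcodes. At least 10 mural UMIs were seen in 36 capillary barcodes of R1 and 21 of R2. Erythroid genes summed to 10394 and 3441 CPM in capillary barcodes, and to 78714 CPM in arterial-like barcodes of R1 against 2200 in R2. The 12 fibroblast markers summed to 1141 and 1763 CPM in capillary, 1960 and 1524 in venous-like and 3953 and 3534 in arterial-like barcodes.

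Within the capillary class the libraries were close for most genes. Over 1827 genes with at least 100 UMIs, the difference of R2 from R1 had a median of 0.01 on the log2 scale and ran from -0.54 at the 5th to 0.53 at the 95th percentile, and 31 genes differed by 2-fold or more. With 1 library a side there is no test. Among the genes higher in R1 were Xist at 224 CPM, which had no UMI in R2, the antigen presentation gene Cd74 at 387 against 21.4 CPM, and the complement genes C1qa, C1qb and C1qc. Macrophage markers summed to 1313 CPM in R1 and 411 in R2. Higher in R2 were Icam1 (115 CPM in R1, 264 in R2), Vcam1 (330 and 625 CPM), Il1r1 (102 and 211 CPM) and Lcn2, a secreted iron-siderophore carrier (111 and 380 CPM). All are on the venous zone list, but other genes of it were lower in R2, such as Tmsb10 (1664 and 1564 CPM) and Flt4 (66.0 and 49.9 CPM). The arterial zone list also went both ways. Fbln5 (92.0 and 183 CPM) and Mgp (1111 and 1949 CPM) were higher in R2, and Sema3g (135 and 73.7 CPM) was lower. Vcam1 was not particular to venous-like barcodes (1241 and 1457 CPM), since arterial-like ones held 1036 and 1019 CPM. Lcn2 fell to 12.6 and 42.7 CPM without the shared barcodes, while Vcam1 stood at 373 and 758 CPM. Xist, the RNA of the inactive X chromosome, had UMIs in 38 of 169 unshared capillary barcodes of R1 and in 0 of 148 of R2, which at 3 counts allows up to 9.84 CPM, and in none of the 40 and 45 shared ones. The Y-linked Ddx3y had UMIs in unshared capillary barcodes of both libraries (103 and 108 CPM). Over all unshared kept barcodes, Xist had UMIs in 404 of 2909 of R1 and in 6 of 2960 of R2. Ddx3y had UMIs in 486 and 426 of them. The Xist difference therefore ran through the libraries and was not particular to capillary barcodes. The sexes behind each library were not tested.

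Members also differed in the few venous and arterial UMIs they held. Unshared members were split by the few UMIs of the venous and arterial rule genes they held, into 54 barcodes of R1 and 30 of R2 with neither, 81 and 93 with venous UMIs above arterial, and 27 and 20 with arterial UMIs above venous. This split uses genes of the rule, the genes given here were chosen after their values were seen, and there is no test, so the values are a description and support no order along the vessel. Mfsd2a, a lipid transporter that holds down vesicle traffic, was at 343 and 151 CPM in barcodes with neither, 121 and 141 in those leaning venous and 75.6 and 31.0 in those leaning arterial. Cxcl12, a chemokine, was at 4264 and 2159 CPM in barcodes with neither, against 1531 and 588 leaning venous and 982 and 1177 leaning arterial. In R2 the Mfsd2a values rest on 9, 29 and 1 UMIs. Slc38a5, a glutamine and neutral amino acid carrier, was at 692 and 835 CPM in the barcodes leaning venous, 85.8 and 218 in those with neither and 21.6 and 217 in those leaning arterial. Il1r1, the receptor of interleukin-1, was at 211 and 359 CPM leaning venous, 25.7 and 100 with neither and 10.8 and 0 leaning arterial. Icam1, an adhesion molecule for leukocytes, was at 121 and 214 CPM leaning venous, against 17.2 and 16.7 with neither and 21.6 and 31.0 leaning arterial. Gkn3, a marker of brain arteries, was at 831 and 1858 CPM in the barcodes leaning arterial and at 8.58 and 33.5 in those with neither. Fbln5, an elastic fibre protein, was at 356 and 1641 CPM leaning arterial and at 17.2 and 33.5 with neither. Vcam1 was high at both ends, at 486 and 806 CPM leaning venous and 561 and 1146 leaning arterial, against 8.58 and 151 with neither. The export pump Abcg2 was at 443 and 310 CPM leaning arterial, against 918 and 1188 with neither and 1215 and 1234 leaning venous. Median UMIs were 1569 and 1564 in the barcodes with neither, 1931 and 1725 in those leaning venous and 1834 and 1350 in those leaning arterial, and the part of this depth in the split was not tested.

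**Figure D3:**
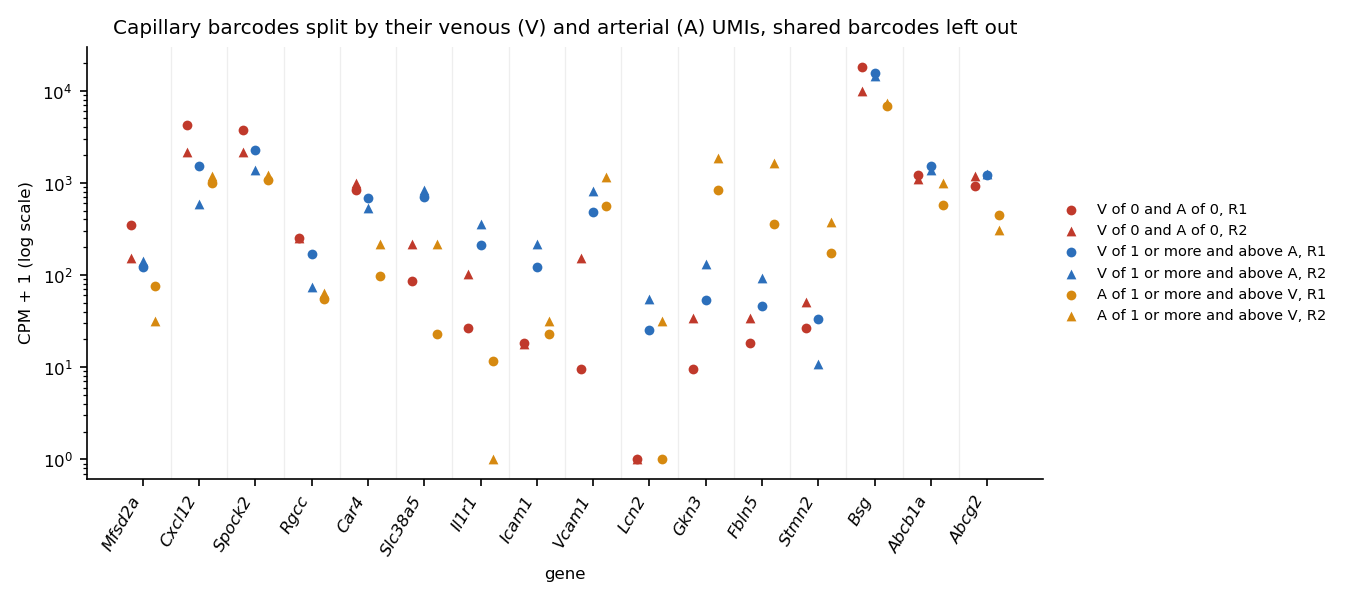
CPM plus 1 (log scale) of 16 genes in unshared capillary barcodes with no venous or arterial UMI (red), with more venous UMIs (blue) and with more arterial UMIs (orange), summed per library (circles R1, triangles R2). The genes were chosen after their values were seen, and the split uses genes of the rule, so the plot is a description. Gkn3 is at 831 and 1858 CPM in orange and at 8.58 and 33.5 in red.

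Capillary and arterial-like barcodes were compared on summed counts with edgeR's quasi-likelihood test, with Benjamini-Hochberg adjustment over the 4444 genes tested and a threshold of 0.05. The 15 rule genes were left out. Fold changes are log2 with standard error, positive where capillary is higher. The standard error was worked back from the fold change and the F statistic of the test, so it adds nothing to the test. Higher in capillary were 309 genes (6.95%) and lower were 323 (7.27%), together 632 (14.2%), and the median over all genes was 0.02. Without shared barcodes the counts were 238 (5.5%) and 222 (5.13%) of 4330, and of 608 earlier calls still tested, 606 had the same direction and 424 were called again. The lists by vessel zone follow the axis on which the classes were divided and are not independent of it.

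Carriers outside the rule were also higher in capillary barcodes. Members were themselves chosen by the sum over 4 carriers, so the carrier lists are not independent of the rule in either comparison. Of the 20 solute carriers tested (of 26 listed), 15 were higher in capillary and 0 lower (at an unadjusted p under 0.05, 19 and 0; by DESeq2, 10 and 0), with a median log2 fold change of 1.94. Without shared barcodes 15 of 19 were higher and 0 lower, at a median of 2.07. Slc38a5 had 417 CPM in R1 and 649 in R2 in capillary barcodes, against no UMI and 21.7 CPM in arterial-like ones. The 513 UMIs against 2 give a ratio of 52.1 (counting interval 14.3 to 431; adjusted p = 4.78e-07 in edgeR). Slc40a1, the iron exporter ferroportin, was at 240 and 147 CPM, against 9.09 CPM and no UMI. Its 200 UMIs against 1 give a ratio of 40.6 (7.20 to 1611; adjusted p = 6.32e-05 in edgeR). Slc1a1, a glutamate carrier, was at 74.7 and 73.7 CPM against no UMI in either library, and was at least 5.01-fold higher, set against 3 UMIs over both libraries (adjusted p = 0.00184 in edgeR). Mfsd2a was at 181 and 150 CPM against 9.09 CPM and no UMI, 167 UMIs to 1, a ratio of 33.9 (6.002 to 1347). None of these 4 had overlapping values.

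Of 7 ABC transporters tested, the family of the efflux pumps, 2 were higher and 0 lower (3 and 0 at an unadjusted p under 0.05; 2 and 0 by DESeq2), and 3 of 8 without shared barcodes. Abcg2, the pump BCRP, was at 946 and 1017 CPM against 227 and 293 in arterial-like barcodes, a log2 fold change of 1.93 ± 0.29 (SE; edgeR adjusted p = 6.34e-05). Abcb1a, P-glycoprotein, was at 1160 and 1124 CPM against 300 and 618, a difference of 1.36 ± 0.29 (edgeR adjusted p = 0.00239), larger in R1 (1.89) than in R2 (0.89). Neither overlapped, and without shared barcodes the values were 2.05 and 1.43.

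Receptors and iron handling showed both directions, with 5 of 18 genes higher and 2 lower (4 and 2 without shared barcodes). Bsg, basigin, a partner protein of monocarboxylate carriers, was at 16481 and 16556 CPM in capillary and at 2835 and 3187 CPM in arterial-like barcodes (2.46 ± 0.26, edgeR adjusted p = 4.78e-07; 2.60 without shared barcodes). Tfrc, the transferrin receptor, was at 278 and 235 CPM against 9.09 and 10.8, which is 259 UMIs against 2 and a ratio of 26.3 (7.20 to 218; edgeR adjusted p = 1.61e-05). Lepr, the leptin receptor, was lower, at 26.0 and 26.1 CPM against 127 and 152 (-2.37 ± 0.44, edgeR adjusted p = 0.000689).

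Of the WNT list, 4 of 17 were higher and 1 lower (3 and 1 of 14 without shared barcodes). Lef1, the transcription factor, was at 354 and 349 CPM against 99.9 and 75.9 (1.99 ± 0.35, edgeR adjusted p = 0.000376; 2.28 without shared barcodes). Foxf2, a forkhead factor, was at 109 and 90.3 CPM against 27.3 and 21.7 (2.004 ± 0.53, edgeR adjusted p = 0.0125), a call lost without shared barcodes (2.06, edgeR adjusted p = 0.059). Reck, a co-receptor for WNT7 ligands, went the other way, at 129 and 121 CPM against 482 and 596 (-2.09 ± 0.27, edgeR adjusted p = 1.28e-05; -1.94 without shared barcodes). Junction genes were near the background, with 2 of 13 higher and 1 lower and a median of 0.22. Jam2 was at 287 and 273 CPM against 81.8 and 130 (1.43 ± 0.34, edgeR adjusted p = 0.00607; 1.68 without shared barcodes). Ocln, occludin, was at 182 and 214 CPM against 81.8 and 75.9 (1.31 ± 0.38, edgeR adjusted p = 0.0212), a call lost without shared barcodes (1.22, edgeR adjusted p = 0.0539).

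On the zone axis of the rule, capillary zone genes were higher and most arterial zone genes lower in capillary barcodes. Of 13 capillary zone genes, 12 were higher and 0 lower, with a median of 3.23 (11 and 0 without shared barcodes; 12 and 0 at an unadjusted p under 0.05, and 9 and 0 by DESeq2). Car4, a membrane carbonic anhydrase, was at 604 and 585 CPM against no UMI, at least 40.2-fold higher, or at least 34.5-fold without shared barcodes. Kdr, the VEGF receptor, had 525 UMIs against 3, a ratio of 35.5 (12.1 to 173), and Rgcc 179 against 1, a ratio of 36.3 (6.44 to 1443). Of 24 arterial zone genes 19 were lower and 1 higher, at a median of -1.94. Fbln5 was at 92.0 and 183 CPM against 1481 and 1832 (-3.62 ± 0.30, edgeR adjusted p = 1.69e-08), Cytl1 at 34.7 and 133 CPM against 609 and 1149 (-3.45 ± 0.41), and Gja5, a connexin, at 8.68 and 11.9 CPM against 109 and 119. Of 15 venous zone genes 7 were higher and 1 lower. Emcn, endomucin, was at 412 and 442 CPM against 18.2 and 10.8, which is 423 UMIs against 3 and a ratio of 28.6 (9.73 to 139). Lcn2 was at least 15.2-fold higher (224 UMIs against 0). Without shared barcodes it had 19 UMIs against 0, at least 1.42-fold higher, and lost its call (edgeR adjusted p = 0.215).

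Further lists held changes in both directions. Signalling genes were 6 of 26 higher and 5 lower, with Robo4 at 179 and 133 CPM against 36.3 and 32.5, and the Notch ligand Jag1 lower at 79.9 and 102 CPM against 463 and 336 (-2.14 ± 0.31, edgeR adjusted p = 5.11e-05). Basement membrane genes were 5 of 20 in each direction, with the proteoglycan Spock2 at 2289 and 1509 CPM against 154 and 249 (3.23 ± 0.32, edgeR adjusted p = 2.78e-07) and Itga6, an integrin for laminin, at 387 and 428 CPM against 54.5 and 54.2. Genes of coagulation and tone were 3 of 14 higher and 5 lower. Nostrin, which binds endothelial nitric oxide synthase, was at 276 and 366 CPM against 9.09 and 10.8, and Ace, the angiotensin-converting enzyme, was lower at 50.4 and 64.2 CPM against 227 and 260 (-2.08 ± 0.39, edgeR adjusted p = 0.000809). Of the transcription factors 7 of 21 were higher and 0 lower (7 and 0 at an unadjusted p under 0.05; 1 and 0 by DESeq2), and 4 without shared barcodes. Of 21 genes of interferon response and antigen presentation, 1 was higher. Of 16 enzyme genes 5 were higher and 1 lower, among them Car2 (83 UMIs against 2, a ratio of 8.42, 2.26 to 70.7) and Hmcn1 at 325 and 292 CPM against 45.4 and 75.9 (2.37 ± 0.39). Of 20 immediate-early and stress genes 6 were higher and 0 lower (10 and 2 at an unadjusted p under 0.05; 2 and 0 by DESeq2), and 2 and 1 of 16 without shared barcodes. Jun was at 1396 and 1863 CPM against 373 and 520 and was not called without shared barcodes (edgeR adjusted p = 0.28), while Ier3, at 537 and 813 CPM against 164 and 249, was (3.14 ± 0.52). Outside the lists, Ctla2a, which encodes a protease inhibitor-like protein, was at 804 and 1231 CPM against no UMI, at least 66.4-fold higher, and Tmtc2, Tiam1, Stx3 and Fendrr also had no UMI in arterial-like barcodes. Sdc1, the proteoglycan syndecan-1, was lower with no UMI in R1 and 16.6 CPM in R2 against 127 and 282 CPM, as were Pi16, Gata6, Fblim1 and Fbn1. Fibroblast markers were higher in the arterial-like class in both libraries, and without shared barcodes too (4373 and 4189 CPM against 1360 and 2307). Erythroid genes were higher there in R1 alone with all barcodes, and without shared ones they stood at 87085 and 2597 CPM against 10990 and 2176. Mural markers were higher there with all barcodes, but without shared ones they were at 3941 CPM against 2802 in R1 and at 1044 against 2136 in R2. The part of these other cell types in the result was not tested. Without barcodes that held at least 10 UMIs of another cell type, an alternative chosen after seeing the data, 31 of the 34 named genes that could be fitted kept their direction and their side of the threshold.

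**Figure D4:**
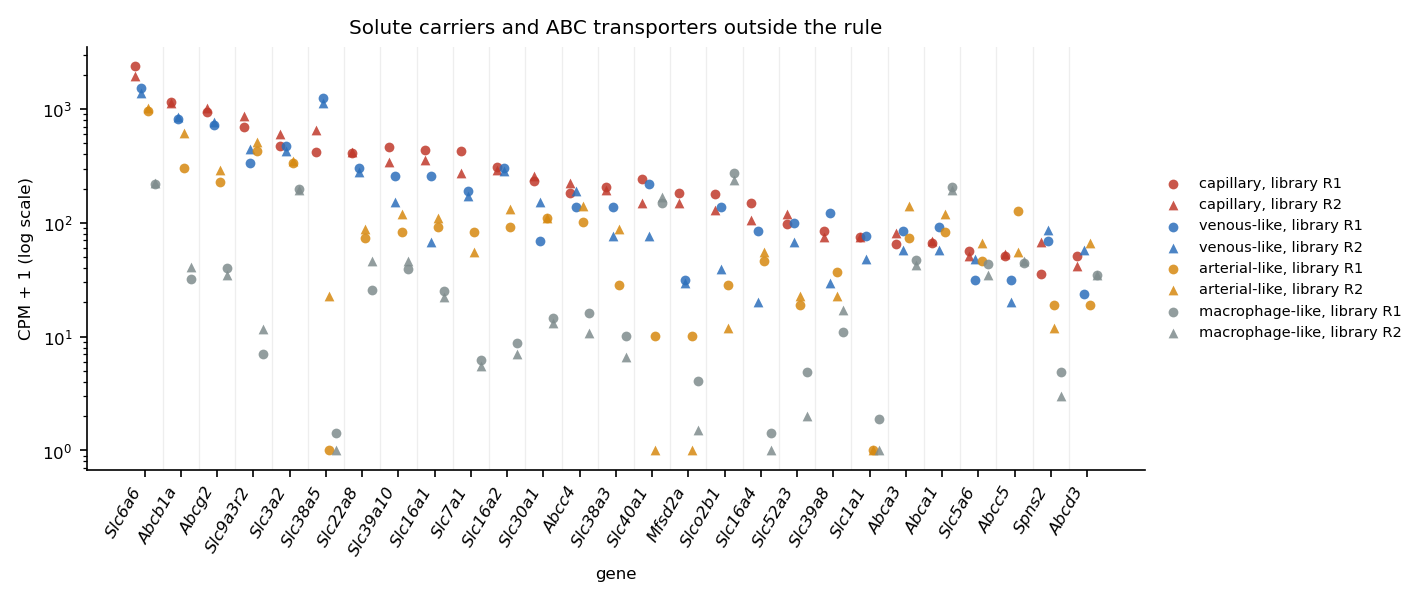
CPM plus 1 (log scale) of the tested solute carriers and ABC transporters outside the rule, ordered by their capillary level, per class and library (circles R1, triangles R2). Capillary (red) lies above arterial-like (orange) for most, and Slc38a5 stands highest in venous-like barcodes (blue).

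In the main fit the venous-like class gave fewer differences than the arterial-like class, and most were not called without the shared barcodes. Higher in capillary were 55 genes (1.24%) and lower were 89 (2%), together 144 (3.24%) of 4444, and 743 had an unadjusted p under 0.05. Without shared barcodes the counts were 9 (0.208%) and 7 (0.162%) of 4330. Of the 144 genes, 129 could then be tested, 95 kept their direction and 11 were called again. Unshared venous-like barcodes were few, 26 in R1 and 18 in R2.

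Among the carriers 2 genes were called against venous-like barcodes. Of 20 tested, 1 was higher and 1 lower (7 and 1 at an unadjusted p under 0.05; 0 and 1 by DESeq2, which gave no adjusted p for 13), at a median of 0.41, against 0.03 over all genes. Without shared barcodes 1 of 19 was higher and 0 lower. Mfsd2a was at 181 and 150 CPM in capillary and at 30.3 and 28.6 CPM in venous-like barcodes (2.35 ± 0.44, edgeR adjusted p = 0.0023), and without shared barcodes it had 121 UMIs against 0, at least 4.72-fold higher. Slc38a5 was lower in capillary, at 417 and 649 CPM against 1256 and 1134 (-1.33 ± 0.28, edgeR adjusted p = 0.00629; -1.67 in R1 and -0.96 in R2 alone). Its values did not overlap, and without shared barcodes the difference was similar but not called (-1.26 ± 0.32, edgeR adjusted p = 0.0688). It was thus highest in venous-like, lower in capillary and nearly without UMIs in arterial-like barcodes. No ABC transporter was called in edgeR (0 of 7, and 0 at an unadjusted p under 0.05; 0 by DESeq2, which gave no adjusted p for 5). Abcb1a, the most abundant pump, was at 1160 and 1124 CPM against 817 and 848 (0.33 ± 0.27, edgeR adjusted p = 0.574). It was higher in both libraries, and the values did not overlap, but the difference did not pass the test.

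Capillary zone genes were 4 of 13 higher and 1 lower, and 4 and 0 without shared barcodes. Cxcl12 was at 2301 and 1537 CPM against 341 and 400 (2.23 ± 0.28, edgeR adjusted p = 1.39e-05), and at 2068 and 945 CPM against 177 and 312 without shared barcodes (2.73 ± 0.41, edgeR adjusted p = 0.000614). Spock2 was at 2289 and 1509 CPM against 666 and 552 (1.49 ± 0.27; 2.29 ± 0.36 without shared barcodes, edgeR adjusted p = 0.000853). Car4 was at 604 and 585 CPM against 257 and 257 (1.08 ± 0.28, edgeR adjusted p = 0.0312). Without shared barcodes it stood at 596 and 574 CPM against 53.2 and 56.8, a larger difference of 3.48 ± 0.52. Rgcc was at 191 and 164 CPM against 30.3 and 38.1 (2.26 ± 0.44), and had 107 UMIs against 0 without shared barcodes, at least 4.18-fold higher. Tfrc was at 278 and 235 CPM against 45.4 and 105 (1.70 ± 0.38, edgeR adjusted p = 0.0116; 2.32 in R1 and 0.95 in R2 alone), a call lost without shared barcodes (1.95 ± 0.56, edgeR adjusted p = 0.138).

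Of 15 venous zone genes 9 were lower and 0 higher in capillary (11 and 0 at an unadjusted p under 0.05; 5 and 0 by DESeq2, which gave no adjusted p for 9), at a median of -1.20. Without shared barcodes 3 of 13 were lower and 0 higher, at a median of -1.13. Ptgs2, cyclooxygenase-2, was at 29.5 and 59.4 CPM against 454 and 505 (-3.61 ± 0.30, edgeR adjusted p = 4.94e-08), and the difference was -3.04 ± 0.44 without shared barcodes. Icam1 was at 115 and 264 CPM against 1006 and 972 (-2.59 ± 0.30), and at 71.2 and 158 CPM against 603 and 568 without shared barcodes (-2.37 ± 0.39, edgeR adjusted p = 0.00141). Vcam1 was the third of these (-1.68 ± 0.27; -1.39 ± 0.31 without shared barcodes). Lcn2 showed the largest difference of the list with them (-4.39 ± 0.36) and was not called without them (-2.31 ± 0.91, edgeR adjusted p = 0.293). Arterial zone genes were 8 of 24 higher and 0 lower, among them Alpl (2.97 ± 0.52), Gkn3 (2.42 ± 0.46; 1.58 in R1 and 3.65 in R2 alone) and Stmn2 (2.54 ± 0.60). Without shared barcodes none of 23 was called (edgeR; 4 higher and 0 lower at an unadjusted p under 0.05).

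Immediate-early and stress genes, which rise within minutes of cell disturbance, were 16 of 20 lower in capillary than in venous-like barcodes and 0 higher (20 and 0 at an unadjusted p under 0.05; 15 and 0 by DESeq2, which gave no adjusted p for 3), at a median of -1.70. Without shared barcodes 0 of 16 were lower and 1, Hspb1, was higher (0 and 5 at an unadjusted p under 0.05), and the median was 0.46. Atf3 was at 129 and 162 CPM against 991 and 1353 (-3.14 ± 0.29), and without shared barcodes it had 12 UMIs in capillary and 2 in venous-like barcodes. Klf2, a transcription factor that responds to flow, was at 1582 and 1766 CPM against 4374 and 4791 (-1.59 ± 0.26, edgeR adjusted p = 0.000461). Without shared barcodes it was at 1097 and 834 CPM against 478 and 284, and its direction turned (1.42 ± 0.34, edgeR adjusted p = 0.0618). Klf4 (-1.35 to 0.58), Gpx1, a glutathione peroxidase (-1.60 to 1.70), and Ifitm2 (-1.78 to 0.60) turned as well. Fth1, the ferritin heavy chain, was at 3209 and 3248 CPM against 12675 and 15594 (-2.26 ± 0.27, edgeR adjusted p = 6.92e-06), which shrank to -0.31 ± 0.31 without shared barcodes. Nr4a1, Egr1 and Ifitm1, and outside the lists Cxcl2, Nfkbiz, F5, Hilpda and Cxcl1, were likewise lower with the shared barcodes and not called, or not tested, without them.

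The other lists held 1 to 5 calls each with the shared barcodes. Transcription factors were 3 of 21 higher and 2 lower, enzymes 2 of 16 in each direction, and interferon and antigen presentation genes 1 of 21 higher and 3 lower. Receptors and iron handling were 1 of 18 in each direction, and the WNT list was 2 of 17 higher. Junctions (13 genes), signalling (26), basement membrane (20) and coagulation and tone (14) each had 1 higher. The other named genes of this comparison were called with the shared barcodes and not without them: Ctnnb1 (beta-catenin, 1.61 ± 0.30), Reck (1.75 ± 0.47), Sox17 (1.12 ± 0.31), Sox18 (1.89 ± 0.41), Jag2 (1.78 ± 0.37) and Hmcn1 (1.81 ± 0.35) were higher in capillary. Without shared barcodes the differences of Reck (1.85 ± 0.62), Sox17 (1.47 ± 0.46), Sox18 (1.89 ± 0.49) and Hmcn1 (2.16 ± 0.51, edgeR adjusted p = 0.0552) were as large or larger with wider errors, while those of Ctnnb1 (1.23 ± 0.37) and Jag2 (0.85 ± 0.44) were smaller. Reck was therefore above the venous-like level here and below the arterial-like level above, in comparisons that share the capillary sums. Outside the lists Helz2, Sept11, Ep300, Rnaset2a and the haemoglobin gene Hba-a1, an erythroid marker, were higher, the last at 2334 and 746 CPM against 235 and 66.7. In venous-like barcodes the first 4 rest on 1, 4, 3 and 3 UMIs. None of these genes was called without shared barcodes.

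**Figure D5:**
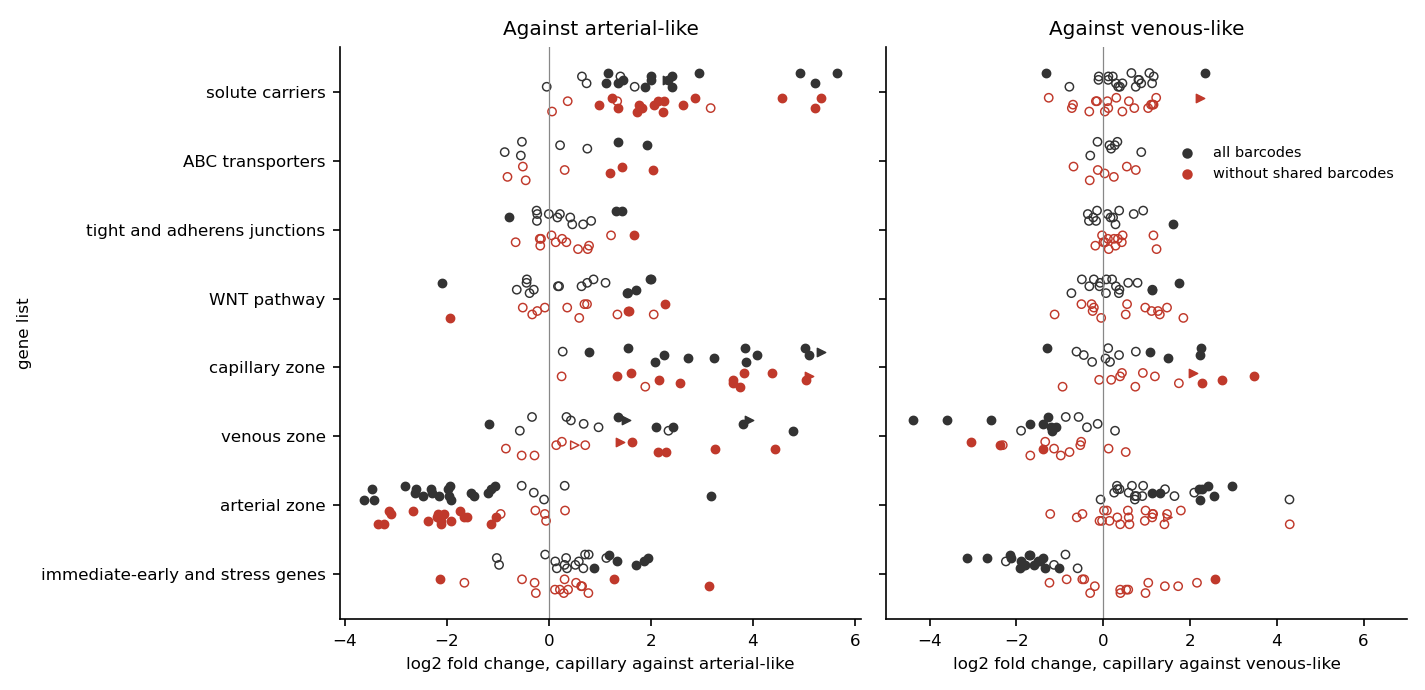
Log2 fold change of each tested gene of 8 lists, capillary against arterial-like (left) and against venous-like (right), with all barcodes (black) and without shared ones (red). Filled symbols passed an adjusted p of 0.05, and triangles are lower bounds where the other class had no UMI. On the left all but 1 of the solute carriers (black) and all capillary zone genes lie right of 0, and on the right all 20 immediate-early genes lie left of 0 in black and on both sides in red.

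Shares of barcodes with a UMI were also compared at equal depth, with the shared barcodes included. Thinned to 1000 UMIs, Slc38a5 was seen in 52 of 184 (28.3%, 95% interval 21.9 to 35.4) capillary barcodes of R1 and 58 of 163 (35.6%, 28.3 to 43.4) of R2. In venous-like barcodes it was seen in 24 of 34 (70.6%) and 20 of 26 (76.9%), and in 0 of 34 and 0 of 30 arterial-like ones, where the intervals reach 10.3% and 11.6%. Unthinned, the capillary shares were 37.3% and 47.2%, and macrophage-like barcodes held it in 1 of 791 (0.126%) and 0 of 783. Car4 was seen in 65 of 184 (35.3%) and 49 of 163 (30.1%) thinned capillary barcodes, 4 of 34 (11.8%) and 3 of 26 (11.5%) venous-like and 0 of 34 and 0 of 30 arterial-like ones. Its unthinned capillary shares were 49.3% and 40.9%. Mfsd2a was seen in 24 of 184 (13.0%) and 27 of 163 (16.6%) thinned capillary barcodes, in 2 of 34 (5.88%, 0.72 to 19.7) and 0 of 26 (up to 13.2%) venous-like ones, in 0 of 34 and 0 of 30 arterial-like ones and in 0.328% and 0.188% of macrophage-like ones. The capillary and venous-like intervals of Mfsd2a overlapped in both libraries. Unthinned, it was seen in 28.2% and 19.7% of capillary barcodes. Abcb1a was seen in 62.0% and 65.6% of thinned capillary barcodes, and in 2.79% and 4.32% of macrophage-like ones. Its capillary and venous-like intervals overlapped in both libraries (58.8% and 57.7% in venous-like). In arterial-like barcodes Abcb1a was seen in 35.3% (19.7 to 53.5) in R1 and 63.3% (43.9 to 80.1) in R2, so that in R2 the share was close to that of capillary barcodes. Without the shared barcodes the thinned capillary shares were 26.7% and 36.1% for Slc38a5, 32.9% and 28.6% for Car4, 12.3% and 14.3% for Mfsd2a and 62.3% and 70.6% for Abcb1a. Intervals cover counting error only.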

How the data were processed

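Droplet single-cell RNA was measured in 2 libraries. Unnormalized UMI counts were deposited by the authors as sparse matrices of genes by barcodes. Cell Ranger 4.0.0, per the file headers, and build mm10, per the submitters' processing notes, were behind them. The deposited gene symbol and barcode lists (unit: other) follow the order of the matrix. The deposited matrices held 7276 (R1) and 6743 (R2) barcodes with 14586462 and 12359040 UMIs. Per the labels' protocols, 5000 cells per sample were the target.

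Counts were summed per library and class and tested with edgeR 4.0.16 (R 4.3.3; TMM, filterByExpr, quasi-likelihood, library as a block, 4 classes with at least 20 barcodes per library, or 15 without shared barcodes; prior count 2). Each class was summed within each library, so the library pairs the classes and enters as a block, which leaves 3 residual degrees of freedom. DESeq2 1.42.0, other filters, thinning to 1000 UMIs and single libraries were alternatives. The test was also run on simulated counts, drawn independently for each class and library. These held no shared barcodes, so that run cannot speak for the p-values of fits that include them. Named genes were, per list and comparison, up to 3 with the largest fold change among those past an adjusted p of 0.05, alike in direction in both libraries and with at least 50 CPM, or the most abundant where none passed, and up to 5 in each direction outside the lists. Members and lists were chosen with earlier results of these data known. No doublet caller was used, so doublets may remain. Shares carry exact binomial (Clopper-Pearson) 95% intervals, ratios of 1 to 3 UMIs exact counting intervals, and 0 UMIs a floor of 3 over both libraries. Python 3.11.15, numpy 2.4.6, scipy 1.17.1 and pandas 2.3.3 were used. Promoters came from RefSeq (GRCm38.p6).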

Additional observations from a re-analysis of the deposited data

Results flagged for a closer look

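Barcodes outside the quality limits also met the rest of the capillary rule, in data that no comparison used. There were 46 such barcodes in R1 and 25 in R2. Of these, 46 in R1 and 21 in R2 were over the limit of 10% mitochondrial UMIs, out of 3631 and 2905 deposited barcodes over that limit.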

How the results depend on the processing

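Named genes that were called had been chosen to be alike in direction in both libraries. With 1 library in turn left out none of them could therefore change direction, so this is no check, and a single library has no test. The fold change moved by more than its standard error in 29 (without replicate 1) and 23 (without replicate 2) of 48 named genes against arterial-like barcodes, and in 17 and 15 of 40 against venous-like ones. These counts compare unlike measures, a difference of log2 CPM with a prior count of 2 in 1 library and the fitted fold change. A gene with few UMIs can thus count as moved although the libraries are alike. Car4 against arterial-like barcodes was at 6.14 in R1 and 6.09 in R2, against a fitted 10.1 ± 0.84. Under RLE size factors all 40 named genes against venous-like and all 48 against arterial-like barcodes kept their direction and their side of the threshold. In the comparison with arterial-like barcodes, 632 genes were called (309 higher, 323 lower). The counts were 198 (89 and 109) with DESeq2, 336 (151 and 185) at most 5% mitochondrial UMIs, 375 (198 and 177) at a class threshold of 5 UMIs and 161 (89 and 72) thinned to 1000 UMIs. They were 352 (177 and 175) without barcodes of 10 mural UMIs and 361 (191 and 170) without barcodes of 10 UMIs of any other cell type, both chosen after seeing the data, and 498 genes were higher with no filter on low counts. Without the replicate block (the library) 299 were higher and 300 lower. In the comparison with venous-like barcodes, 144 were called (55 and 89). The counts were 61 (15 and 46) with DESeq2, 334 (148 and 186) with 3 classes in the fit, 21 (7 and 14) thinned, 331 (167 and 164) and 413 (177 and 236) without the mural and mixed barcodes, 16 (9 and 7) without shared barcodes, and 127 higher with no filter. Without the replicate block 38 were higher and 74 lower. Against venous-like barcodes, Klf2 (1.42), Klf4 (0.58), Gpx1 (1.70) and Ifitm2 (0.60) reversed without shared barcodes. Members were 59.1% and 60.2% of endothelial barcodes at 800 genes or more, and 48.2% in R1 at a threshold of 5 UMIs. The cause of these shifts was not tested. Not run, because too few barcodes were left in a class, were the 5% mitochondrial limit and the shared barcodes at 20 per class against venous-like, and the exclusion of mixed barcodes at 3 UMIs in both. At this depth a count of 0 allows up to 3 UMIs over both libraries.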
